A study of Mus musculus with 6 samples.

Results

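Secreted and membrane proteins enter the endoplasmic reticulum (ER) through the Sec61 translocon and leave it for the Golgi in COPII coated vesicles. The transcripts of 39 mouse genes of this route were described here: 10 of the translocon, 5 of the signal peptidase, 11 of the COPII coat, 7 of cargo receptors and 6 of retrieval to the ER. They were chosen by gene symbol, from function, out of the 23364 symbols of the table. They were measured in 3 RNA-seq libraries of osteoblasts, the cells that lay down bone, from the calvaria (skull roof). These cells were sorted for green fluorescent protein (GFP), carried the genotype label "Sp7 positive" and had been released with Liberase TM; what drives the GFP is not stated in the labels. The comparison was with 3 libraries of chondrocytes, the cells of cartilage, of genotype WT, from ribs digested with Pronase and Collagenase D. All mice were C57BL/6 at postnatal day 1, and RNA libraries came from a TruSeq kit used with some changes. Cell type, body site, sorting, genotype label and enzyme all went with the group and cannot be told apart. The labels do not say that replicates came from separate animals, so p-values measure the spread between these samples, which may be technical.

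Bone and cartilage cells both secrete large amounts of collagen, a cargo too long and stiff for an ordinary vesicle. Nascent chains cross the membrane through the Sec61 pore, lose their signal peptide to the signal peptidase and fold with the help of chaperones. Sar1, Sec23 and Sec24 then build the inner COPII layer around cargo, Sec13 and Sec31 add the outer cage, and COPI vesicles bring escaped ER residents back. In people, mutations of SEC23A and SEC24D cause skeletal disorders.

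Short elements of the ER stress response are known to lie near the start of many such genes, so promoter windows were read as well, after the values had been seen. RefSeq windows on GRCm38.p6, from 250 bases before to 50 bases after the annotated start, were found for 32 of the 39 genes. No entry was used for Sec61a1, Ssr2, Spcs3, Sec11c, Lman1, Tmed2 and Kdelr2. Each motif was searched on both strands. The unfolded protein response element (UPRE, TGACGTGG) was in 4 of 32 windows (12.5%), against 0.714% of the windows of 27025 genes. The letters GCCACGT, called the CCACGT box here, were in 15 of 32 windows (46.9%), against 2.95% of all genes. They were chosen after windows had been looked at, and no test was made. The shorter core TGACGT, which lies within the UPRE, was in 10 windows (31.2%), against 8.37% of all genes. No match was found for the ER stress element (CCAAT, 9 bases of any kind, CCACG), which 0.137% of genes hold, for its second form (ATTGG, 1 base, CCACG; 0.0444%), or for the cAMP response element TGACGTCA (2.03%). The windows of all genes were not matched to those of the route for expression level or base content. A match says only that these letters stand in the window.

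The 4 windows with a UPRE are shown because they name a COPII inner coat pair, a retrieval receptor and a COPI subunit. Each run is 60 bases, 5′ to 3′ on the strand of the gene, with the match in capitals.
Sec23a, chr12:59011988-59012047, minus strand: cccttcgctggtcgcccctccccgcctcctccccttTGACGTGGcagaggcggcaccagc
Sec24d, chr3:123267444-123267503, plus strand: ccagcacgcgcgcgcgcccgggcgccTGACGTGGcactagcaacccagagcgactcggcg
Kdelr3, chr15:79516352-79516411, plus strand: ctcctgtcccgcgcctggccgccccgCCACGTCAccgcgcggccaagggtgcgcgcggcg
Copb1, chr7:114254675-114254734, minus strand: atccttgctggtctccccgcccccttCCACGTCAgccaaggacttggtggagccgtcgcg
Sec23a and Sec24d carried the element in the direction of the gene, and Kdelr3 and Copb1 carried it on the other strand. In 3 of these 4 windows (Sec23a, Sec24d and Kdelr3) the UPRE overlapped a CCACGT box. The motifs share the letters ACGTGG, which read CCACGT on the other strand, so a UPRE followed by C is always also a box. The overlap therefore counts the same letters for both motifs.

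Windows with a CCACGT box and no UPRE are shown for 6 genes of the translocon, the COPII coat, cargo receptors and retrieval, again with the match in capitals.
Ssr1, chr13:37994249-37994308, minus strand: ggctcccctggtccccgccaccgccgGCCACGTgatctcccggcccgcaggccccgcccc
Ssr3, chr3:65392711-65392770, minus strand: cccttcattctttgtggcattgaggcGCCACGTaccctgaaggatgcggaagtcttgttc
Sec13, chr6:113740652-113740711, minus strand: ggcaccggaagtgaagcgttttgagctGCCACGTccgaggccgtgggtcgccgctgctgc
Sec31a, chr5:100416205-100416264, minus strand: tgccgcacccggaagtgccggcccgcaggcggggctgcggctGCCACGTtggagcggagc
Mcfd2, chr17:87266105-87266164, minus strand: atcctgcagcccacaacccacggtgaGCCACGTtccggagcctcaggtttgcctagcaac
Copg1, chr6:87887910-87887969, plus strand: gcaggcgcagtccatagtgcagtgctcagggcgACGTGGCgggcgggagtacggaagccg
The other windows with a box were those of Sec63, Spcs1, Sar1a, Sec24c, Tmed3 and Tmed9. The 15 windows held 17 boxes, from 201 bases before the start to 29 bases after it.

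**Figure D1:**
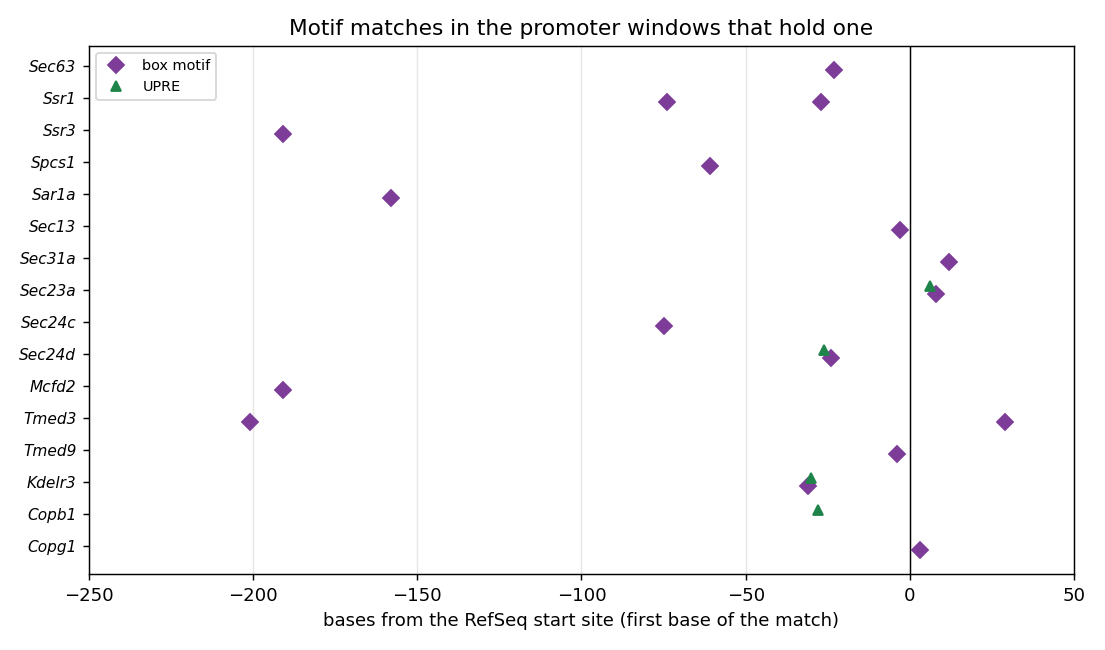
Position of each UPRE (triangles) and each CCACGT box (diamonds, "box motif") in bases from the RefSeq start site (0, vertical line), for the 16 genes whose window holds either. The matches run from -201 to 29. Triangle and diamond lie together in Sec23a, Sec24d and Kdelr3, where the same letters count for both motifs.

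A pair of Sec24 genes is shown at length, because 1 was called higher and the other lower in osteoblasts on the values as deposited. By median of ratios scaling, described below, Sec24d was not called and Sec24a was still called lower. Each run is 280 bases, from 250 bases before the start to 30 bases after it. Capitals mark the core TGACGT on either strand and the CCACGT box.
Sec24d, chr3:123267246-123267525, plus strand: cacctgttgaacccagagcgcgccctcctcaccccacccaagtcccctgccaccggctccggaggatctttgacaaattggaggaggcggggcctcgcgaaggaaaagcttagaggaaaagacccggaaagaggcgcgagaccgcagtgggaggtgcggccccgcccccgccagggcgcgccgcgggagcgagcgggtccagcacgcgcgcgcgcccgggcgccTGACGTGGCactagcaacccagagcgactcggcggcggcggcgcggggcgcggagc
Sec24a, chr11:51756805-51757084, minus strand: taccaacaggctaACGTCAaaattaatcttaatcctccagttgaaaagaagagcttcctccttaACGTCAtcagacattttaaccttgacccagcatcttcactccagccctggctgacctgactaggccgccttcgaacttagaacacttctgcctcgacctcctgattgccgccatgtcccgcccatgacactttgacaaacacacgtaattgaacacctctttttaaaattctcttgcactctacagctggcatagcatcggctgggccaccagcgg
Sec24d held 1 such core, inside the joined UPRE and box. Sec24a held 2 on the other strand, far from the start, and neither a UPRE nor a box. Whether these letters go with the direction of a call was not tested.

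Levels were RPKM, that is, reads divided by transcript length and by library depth. Depth worked back from the steps of the low values was 26920000 to 34590000 reads in osteoblast libraries and 33580000 to 35830000 in chondrocyte libraries. By that estimate the fewest reads were 159, for Sec11c in chondrocyte replicate 2, among the tested genes of the list other than Sec23b, whose transcripts did not all have a length. All 7 osteoblast markers were higher and all 7 chondrocyte markers lower in osteoblasts. Chondrocyte replicate 3 stood apart: Col1a1 was 7765 RPKM there, against 2259 to 2270 RPKM in the other chondrocyte libraries, and it was the highest chondrocyte library for 7 of 7 perichondrium, tendon and fibroblast markers. Among those markers 4 were called higher and 2 lower in osteoblasts as deposited. Col3a1 averaged 2445 ± 449.5 RPKM in osteoblasts and 1016 ± 774.6 RPKM in chondrocytes, whereas Tnmd averaged 26.2 ± 10.53 and 166 ± 154 RPKM (SD, n = 3 each). Their sum, mostly Col3a1 and Postn, was 2543 to 3745 RPKM in osteoblasts, set against 1378 to 4955 RPKM in chondrocytes. Myeloid and osteoclast markers summed to 27.1 to 33.6 RPKM in osteoblast libraries and 3.97 to 8.70 RPKM in chondrocyte libraries. Of 5 skeletal muscle markers only Tnnt3 reached 1 RPKM in any library, with 0.698 to 0.9995 RPKM in osteoblast libraries and 9.16 to 40.1 RPKM in chondrocyte libraries, and Ckm was listed at 0.0001 RPKM in all 6. Endothelial markers summed to at most 2.14 and 4.97 RPKM. B and plasma cell markers, whose cells are rich in these transcripts, summed to at most 0.436 and 0.146 RPKM. The part of other cell types in the results below was not tested. In bulk RNA, fewer cells of a type and less RNA per cell cannot be told apart.

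The genes of the route were abundant in both cell types. Of the 38 that were tested, 23 lay in the top 10% of tested genes by mean RPKM, and summed over the 39 genes the levels were 2377, 2531 and 2311 RPKM in osteoblasts, against 1593, 1923 and 1907 RPKM in chondrocytes. As deposited, every osteoblast library was above every chondrocyte library. This order depends on scaling: median of ratios scaling, described below, divides osteoblast libraries by 1.12 to 1.2 and chondrocyte libraries by 0.7711 to 0.9186. Mia3, the TANGO1 receptor that loads procollagen into carriers, was listed at the lowest value of the table, 0.0001 RPKM, in all 6 libraries and could not be tested. Whether Mia3 was not expressed or was not counted could not be settled. Sec61a1, Sec61b and Tmed2 were the highest in osteoblasts, at 147 ± 11.1, 140 ± 10.1 and 134 ± 3.82 RPKM (SD, n = 3). Sec24a, at 5.10 ± 0.289 RPKM in osteoblasts, set against 7.74 ± 0.532 RPKM in chondrocytes (SD, n = 3 each), was the lowest of the tested genes in osteoblasts.

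**Figure D2:**
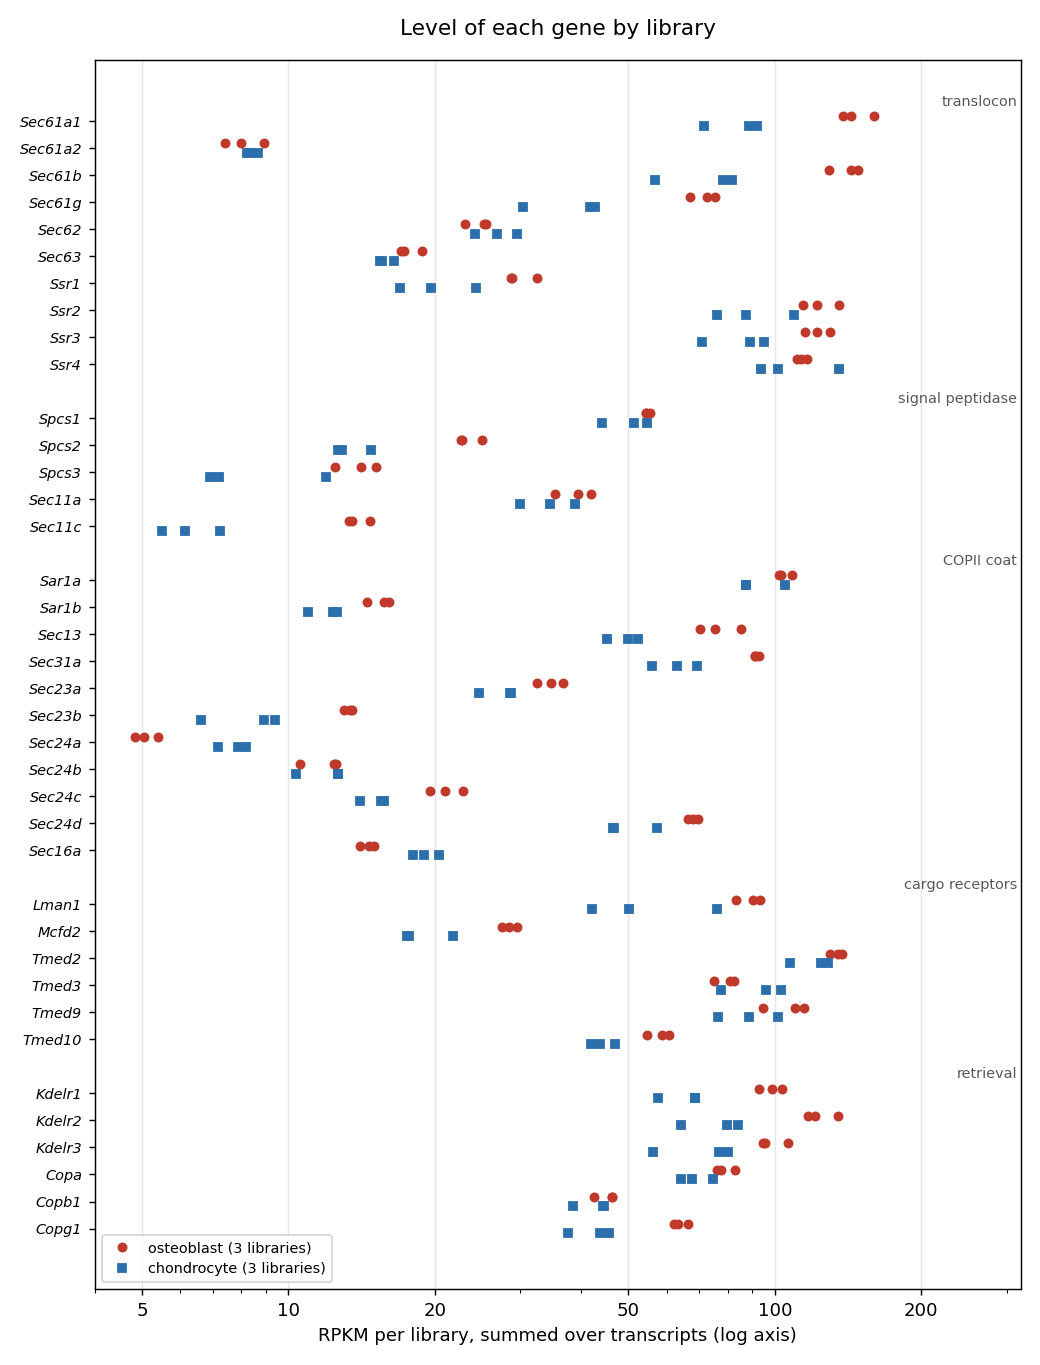
RPKM of the 38 tested genes in each library on a log axis, grouped by step, with osteoblast libraries as circles above chondrocyte libraries as squares. The levels span about 5 RPKM (Sec24a) to 160 RPKM (Sec61a1), and the circles lie right of the squares without overlap for 26 genes and left of them for 2.

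On the values as deposited, 23 of 38 genes (60.5%) were called higher in osteoblasts, against 55.5% of all 11218 tested genes, and 2 (5.26%) were called lower, against 13.5%. The calls are limma on log2(RPKM + 1) with Benjamini-Hochberg adjusted p under 0.05. The median log2 difference, osteoblast minus chondrocyte, was 0.45 for the route and 0.43 for all tested genes, so the share called higher was near that of genes at large. With a library left out, 17 (without osteoblast replicate 2 or chondrocyte replicate 1) to 24 (without chondrocyte replicate 2) were called higher, 22 without chondrocyte replicate 3, and 2 were called lower each time. Groups did not overlap for 26 genes on the higher side and 2 on the lower, against 60.4% and 15.3% of all tested genes.

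Of the 23 calls on the higher side, 19 depended on how libraries were scaled. These 19 were 50% of the 38 genes. Of all 11218 tested genes, 2459 (21.9%) were called higher as deposited and not called by median of ratios. Median of ratios scaling, which puts the typical gene at the same level in every library, lowered the tested genes by a median of 0.38 on the log2 scale and the genes of the route by 0.38 to 0.44. Under it 4 of 38 genes were called higher, against 33.6% of all tested genes, and 9 lower, against 28.3%. The median was 0.01 for the route and 0.06 for all tested genes. Groups did not overlap for 7 genes on the higher side and 13 on the lower, against 38.0% and 32.3% of all genes. The number called higher under this scaling was 2 without osteoblast replicate 1, 2 or 3, and 12 without chondrocyte replicate 2. The number lower was 6 without osteoblast replicate 1, 2 or 3, and 13 without chondrocyte replicate 1. Called the same way under both scalings were Sec61b, Spcs2, Sec11c and Sec23b, higher in osteoblasts, and Sec24a and Sec16a, lower. Of all tested genes 33.6% were called higher and 13.5% lower under both.

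**Figure D3:**
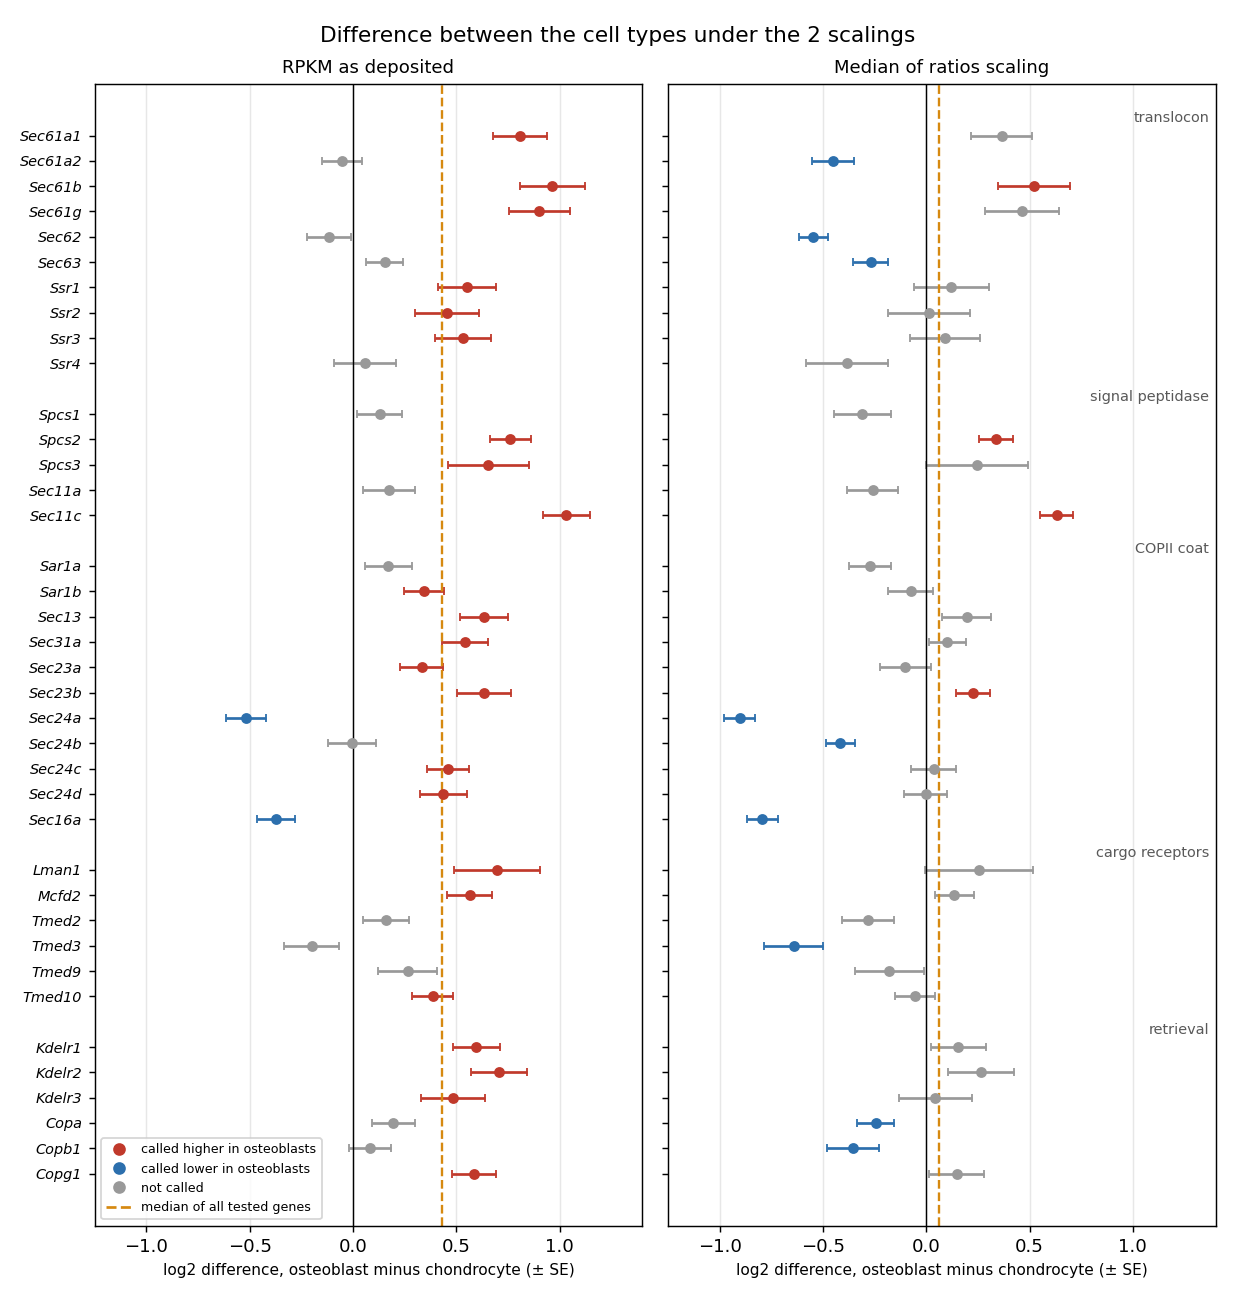
Log2 difference, osteoblast minus chondrocyte, on log2(RPKM + 1), with its standard error, for the 38 genes as deposited (left) and under median of ratios scaling (right). Colour gives the call, and the dashed line is the median of all tested genes, 0.43 at the left and 0.06 at the right. Sec61b, Spcs2, Sec11c and Sec23b are red and Sec24a and Sec16a blue in both panels.

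In the translocon, the 3 subunits of the main Sec61 channel were higher in osteoblasts as deposited, while the second alpha subunit and the Sec62 and Sec63 partners were not called. Of 10 genes 6 (60%) were called higher and 0 lower as deposited (median log2 difference 0.49), against 55.5% and 13.5% of all tested genes (0.43). Under median of ratios scaling 1 (10%) was called higher and 3 (30%) lower (0.05), against 33.6% and 28.3% of all tested genes (0.06). Sec61b, the small beta subunit, had 144, 148 and 129 RPKM in osteoblasts, against 56.8, 78.4 and 81.5 RPKM in chondrocytes. All 3 osteoblast libraries were above all 3 chondrocyte libraries, and chondrocyte replicate 1 was the lowest. The ratio of means was 1.94, with a log2 difference of 0.96 ± 0.16 (SE; limma, adjusted p = 0.00122) as deposited and 0.52 (adjusted p = 0.0368) by median of ratios. The second call was lost when osteoblast replicate 1, 2 or 3 was left out (limma, adjusted p = 0.102, 0.110 and 0.0849), or chondrocyte replicate 3 (0.0502).

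Sec61a1, which forms the pore, had 144, 160 and 138 RPKM in osteoblasts, against 71.5, 88.4 and 92.0 RPKM in chondrocytes. The groups were apart, with a log2 difference of 0.81 ± 0.13 (SE; limma, adjusted p = 0.00122) as deposited and 0.37 (adjusted p = 0.0653) by median of ratios. Sec61g, the gamma subunit, was close to it in both respects, with 0.90 ± 0.15 (adjusted p = 0.00120) and 0.46 (adjusted p = 0.0581). Without chondrocyte replicate 2 both passed under the second scaling, at limma adjusted p = 0.0118 for Sec61a1 and 0.00595 for Sec61g. Opposite to Sec61a1 on the genome, a predicted transcript shares 17.3% of its exonic bases, and the counting is not stated to use strand.

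Sec61a2, the other alpha subunit, was a minor form, with 7.99, 8.89 and 7.42 RPKM in osteoblasts, against 8.35, 8.68 and 8.21 RPKM in chondrocytes. The groups overlapped as deposited, and by median of ratios the osteoblast libraries were all lower. The log2 difference was -0.05 (limma, adjusted p = 0.654) as deposited and -0.45 ± 0.10 (adjusted p = 0.00750) by median of ratios. Nudt5, on the other strand, shares 35.9% of its exonic bases, and reads of the pair cannot be told apart without strand. Sec62 and Sec63, which assist chains that enter after translation and recruit the chaperone BiP, had means of 24.6 ± 1.33 and 17.7 ± 0.946 RPKM in osteoblasts, set against 26.8 ± 2.70 and 15.8 ± 0.60 RPKM in chondrocytes (SD, n = 3 each). Neither was called as deposited (log2 differences of -0.12 and 0.15). Sec62 fell by 0.55 (limma, adjusted p = 0.000616) by median of ratios. Sec63 stood at -0.27 (adjusted p = 0.0292) there, a call lost without osteoblast replicate 1, 2 or 3 (0.0680, 0.118 and 0.0770).

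The translocon-associated protein complex, 4 membrane proteins that help certain signal sequences open the channel, had 3 genes called and 1 not. Ssr1, Ssr2 and Ssr3 were called higher as deposited, with log2 differences of 0.55, 0.46 and 0.53 (limma, adjusted p = 0.00915, 0.0310 and 0.00974). Ssr4 was not called (0.06, adjusted p = 0.738). Ssr4 had 113, 116 and 111 RPKM in osteoblasts, against 93.8, 135 and 102 RPKM in chondrocytes, where replicate 2 was above every osteoblast library. Under median of ratios scaling none of the 4 was called (limma, adjusted p = 0.135 to 0.958), and Ssr4 turned to -0.38. The call of Ssr2 as deposited was lost in 5 of the 6 fits with a library left out, those lacking osteoblast replicate 1, 2 or 3 (limma, adjusted p = 0.0572, 0.114, 0.0770) or chondrocyte replicate 1 or 3 (0.0906, 0.0603). Ssr1 passed by median of ratios without chondrocyte replicate 2 (0.0152).

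In the signal peptidase, which cuts the signal peptide from the entering chain, the catalytic subunit Sec11c and the accessory subunit Spcs2 were higher in osteoblasts under both scalings. Of 5 genes 3 (60%, all tested genes 55.5%) were called higher and 0 lower (all tested genes 13.5%) as deposited, with a median log2 difference of 0.66 (all tested genes 0.43). By the second scaling 2 (40%, all tested genes 33.6%) were called higher and 0 lower (28.3%), with a median of 0.24 (0.06). Sec11c had 13.6, 14.7 and 13.3 RPKM in osteoblasts, against 6.14, 5.51 and 7.22 RPKM in chondrocytes. Each osteoblast library was above each chondrocyte library. The ratio of means, 2.20, was the highest of the 38 genes. The log2 difference was 1.03 ± 0.11 (SE; limma, adjusted p = 0.000184) as deposited and 0.63 ± 0.08 (adjusted p = 0.000527) by median of ratios, and both calls held with any 1 library left out.

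Spcs2 had 22.7, 25 and 22.7 RPKM in osteoblasts, against 12.9, 12.7 and 14.8 RPKM in chondrocytes. The groups were well apart, with a log2 difference of 0.76 ± 0.10 (SE; limma, adjusted p = 0.000414) as deposited and 0.34 ± 0.08 (adjusted p = 0.0101) by median of ratios. Both calls held with any 1 library left out. Sec11a, the other catalytic subunit, was the more abundant of the pair, with 39.5, 41.9 and 35.4 RPKM in osteoblasts, against 29.96, 34.5 and 38.9 RPKM in chondrocytes. Its groups overlapped and it was not called under either scaling (0.17 as deposited and -0.26 by median of ratios; limma, adjusted p = 0.242 and 0.106). Without chondrocyte replicate 1 it was called lower by median of ratios (0.0147).

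Spcs3, an accessory subunit, had 14.1, 15.1 and 12.5 RPKM in osteoblasts, against 6.89, 12.0 and 7.20 RPKM in chondrocytes, where replicate 2 was close to the osteoblast libraries. It was called as deposited (0.66 ± 0.20 SE; limma, adjusted p = 0.0195), and the call was lost without osteoblast replicate 1 or 2 or chondrocyte replicate 1 (0.0613, 0.0708 and 0.0647). By median of ratios it stood at 0.24 (adjusted p = 0.417), or 0.54 (adjusted p = 0.000747) without chondrocyte replicate 2. Spcs1, the remaining accessory subunit, averaged 54.7 ± 0.588 RPKM in osteoblasts, set against 50.1 ± 5.33 RPKM in chondrocytes (SD, n = 3 each) and was not called under either scaling (limma, adjusted p = 0.315 and 0.0925). Without chondrocyte replicate 1 it was called lower by median of ratios (0.0309). Glt8d1 on the other strand shares 19.5% of its exonic bases.

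In the COPII coat, subunits moved in both directions: the cage proteins and most inner coat proteins were higher in osteoblasts as deposited, and Sec24a and Sec16a were lower under both scalings. Of 11 genes 7 (63.6%, all tested genes 55.5%) were called higher and 2 (18.2%, all tested genes 13.5%) lower as deposited, with a median log2 difference of 0.34 (all tested genes 0.43). By median of ratios 1 (9.09%, all tested genes 33.6%) was called higher and 3 (27.3%, all tested genes 28.3%) lower, with a median of -0.07 (0.06). Sec24a, 1 of 4 cargo-binding Sec24 proteins, had 4.84, 5.41 and 5.05 RPKM in osteoblasts, against 7.87, 7.16 and 8.21 RPKM in chondrocytes. The osteoblast libraries were all below the chondrocyte libraries. The log2 difference was -0.52 ± 0.10 (SE; limma, adjusted p = 0.00228) as deposited and -0.90 ± 0.07 (adjusted p = 9.4e-05) by median of ratios.

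Sec16a, the scaffold that marks ER exit sites, had 15.0, 14 and 14.7 RPKM in osteoblasts, against 19.1, 18.1 and 20.4 RPKM in chondrocytes. These groups were also apart, with a log2 difference of -0.37 ± 0.09 (SE; limma, adjusted p = 0.00761) as deposited and -0.79 ± 0.08 (adjusted p = 0.000174) by median of ratios. The calls of Sec24a and Sec16a held under both scalings with any 1 library left out. Sec24b, close to Sec24a in sequence, had 12.4, 12.5 and 10.6 RPKM in osteoblasts, against 12.6, 10.4 and 12.7 RPKM in chondrocytes. It overlapped and was not called as deposited (-0.00; limma, adjusted p = 0.981), and fell by 0.42 (adjusted p = 0.00220) by median of ratios.

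Sec24c and Sec24d, the other pair of the family, were called higher as deposited. Sec24d had 66.4, 69.7 and 68.0 RPKM in osteoblasts, against 46.5, 46.7 and 57.3 RPKM in chondrocytes, where replicate 3 was the closest to the osteoblast libraries. Its log2 difference was 0.44 ± 0.11 (SE; limma, adjusted p = 0.0108) as deposited and -0.00 (adjusted p = 0.985) by median of ratios. Sec24c averaged 21.1 ± 1.69 RPKM in osteoblasts, set against 15.1 ± 0.940 RPKM in chondrocytes (SD, n = 3 each), with 0.46 (limma, adjusted p = 0.00465) and 0.04 (adjusted p = 0.784). These 2 genes thus stood close to the median of all tested genes under each scaling, and Sec24a and Sec24b below it.

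Of the pair of Sec23 genes, which activate the GTPase of Sar1, Sec23b was the less abundant. Sec23b had 13.5, 13.4 and 13 RPKM in osteoblasts, against 8.92, 6.63 and 9.38 RPKM in chondrocytes, and no library of 1 group reached the other. The log2 difference was 0.63 ± 0.13 (SE; limma, adjusted p = 0.00368) as deposited and 0.23 (adjusted p = 0.0477) by median of ratios, a call lost in the fits without osteoblast replicate 1, 2 or 3 (0.110, 0.104, 0.134) or chondrocyte replicate 1 or 2 (0.0726, 0.0864). Sec23a, a known target of Creb3l2 in mouse chondrocytes, had 32.5, 36.7 and 34.6 RPKM in osteoblasts, against 24.7, 28.6 and 28.7 RPKM in chondrocytes. As deposited the groups did not overlap, and the call (0.33 ± 0.10 SE; limma, adjusted p = 0.0218) was lost without osteoblast replicate 2 or 3 or chondrocyte replicate 1 (0.0923, 0.0623 and 0.0760). By median of ratios its groups overlapped and its sign turned (-0.10, adjusted p = 0.498).

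The cage subunits Sec13 and Sec31a were called higher as deposited only. Sec13 averaged 76.9 ± 7.62 RPKM in osteoblasts, set against 49.1 ± 3.63 RPKM in chondrocytes, and Sec31a 91.5 ± 0.968 and 62.7 ± 6.68 RPKM (SD, n = 3 each). Their log2 differences were 0.63 and 0.54 (limma, adjusted p = 0.00203 and 0.00363) as deposited and 0.19 and 0.10 (adjusted p = 0.194 and 0.349) by median of ratios. Sec13 passed by the second scaling without chondrocyte replicate 2 (0.0495). Of the GTPases that start the coat, Sar1a at 105 ± 3.51 and 93.1 ± 10.1 RPKM was the more abundant, and was not called (0.17; adjusted p = 0.215) except as lower by median of ratios without chondrocyte replicate 1 (0.0215). Sar1b, at 15.4 ± 0.838 and 12.0 ± 0.892 RPKM, was called as deposited (0.34; limma, adjusted p = 0.0149), turned to -0.07 by median of ratios, and lost its call without osteoblast replicate 1 or 2 or chondrocyte replicate 1 (0.0607, 0.0672 and 0.0567).

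Among cargo receptors the lectin Lman1 and its partner Mcfd2, which carry glycoproteins such as clotting factors, and the p24 protein Tmed10 were called higher as deposited, and no receptor was called higher by median of ratios. Of 6 tested genes 3 (50%, all tested genes 55.5%) were called higher and 0 lower (13.5%) as deposited, with a median log2 difference of 0.32 (all tested genes 0.43). Under the second scaling 0 were called higher (33.6%) and 1 (16.7%, all tested genes 28.3%) lower, with a median of -0.12 (0.06). Lman1 had 90.2, 93.2 and 83.3 RPKM in osteoblasts, against 42.0, 76.2 and 50.2 RPKM in chondrocytes. The chondrocyte libraries were widely spread, with replicate 2 near the osteoblasts. The call as deposited (0.70 ± 0.21 SE; limma, adjusted p = 0.0188) was lost without osteoblast replicate 1 or 2 or chondrocyte replicate 1 (0.0608, 0.0649 and 0.0522). By median of ratios it stood at 0.26 (adjusted p = 0.424), or 0.56 (adjusted p = 0.00175) without chondrocyte replicate 2.

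Mcfd2 had 27.5, 29.6 and 28.4 RPKM in osteoblasts, against 17.7, 17.5 and 21.9 RPKM in chondrocytes. Its groups were apart as deposited and overlapped by median of ratios. The log2 difference was 0.56 ± 0.11 (SE; limma, adjusted p = 0.00285) as deposited and 0.14 (adjusted p = 0.236) by median of ratios. The 4 p24 proteins, which bind cargo in both COPII and COPI vesicles, had 1 gene called as deposited. Tmed10 stood at 0.39 and Tmed3 at -0.20 as deposited (limma, adjusted p = 0.00957 and 0.208). Tmed3 had 80.8, 82.5 and 75.2 RPKM in osteoblasts, against 77.5, 96.0 and 103 RPKM in chondrocytes, with chondrocyte replicate 1 inside the osteoblast range. Tmed3, by median of ratios, fell by 0.64 (limma, adjusted p = 0.00740), a call that held with any 1 library left out. Tmed2 and Tmed9 were not called under either scaling (0.16 and 0.26 as deposited; limma, adjusted p = 0.236 and 0.131), except that Tmed9 passed as deposited without chondrocyte replicate 2 (0.0355) and Tmed2 was called lower by median of ratios without chondrocyte replicate 1 (0.0215).

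In retrieval, the 3 KDEL receptors, which catch chaperones that have escaped to the Golgi, were higher in osteoblasts as deposited and were not called by median of ratios. Of 6 genes 4 (66.7%, all tested genes 55.5%) were called higher and 0 lower (13.5%) as deposited, with a median log2 difference of 0.54 (all tested genes 0.43). Under median of ratios scaling 0 were called higher (33.6%) and 2 (33.3%, all tested genes 28.3%) lower, with a median of 0.10 (0.06). Kdelr2 had 121, 135 and 117 RPKM in osteoblasts, against 64.1, 84.0 and 79.7 RPKM in chondrocytes. No library of 1 group reached the other as deposited, but the groups overlapped by median of ratios. The log2 difference was 0.71 ± 0.14 (SE; limma, adjusted p = 0.00251) as deposited and 0.27 (adjusted p = 0.187) by median of ratios. Kdelr1 gave 0.60 and 0.16 (limma, adjusted p = 0.00262 and 0.333). Without chondrocyte replicate 2 both passed by the second scaling (0.0161 for Kdelr2 and 0.0499 for Kdelr1).

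Kdelr3 averaged 98.8 ± 6.64 RPKM in osteoblasts, set against 71.0 ± 13 RPKM in chondrocytes (SD, n = 3 each). Its call as deposited (0.49; limma, adjusted p = 0.0243) was lost without osteoblast replicate 1, 2 or 3 or chondrocyte replicate 1 (0.0599, 0.0915, 0.0584 and 0.0502). The 3 COPI coat subunits, which share a complex, had 1 gene called as deposited. Copg1 had 63.1, 66.4 and 62.1 RPKM in osteoblasts, against 37.6, 45.7 and 43.8 RPKM in chondrocytes, and was called as deposited (0.59 ± 0.11 SE; adjusted p = 0.00217). The groups of Copg1 were far apart as deposited and overlapped by median of ratios. Copa (78.8 ± 3.51 and 68.8 ± 5.42 RPKM) and Copb1 (44.97 ± 2.21 and 42.4 ± 3.38 RPKM) were not called as deposited (0.20 and 0.08; limma, adjusted p = 0.134 and 0.486).

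Copa and Copb1 were called lower by median of ratios, at -0.24 and -0.35 (limma, adjusted p = 0.0489 and 0.0447), and Copg1 stood at 0.15 (adjusted p = 0.367). The call of Copa was lost in 5 of the 6 fits with a library left out, at limma adjusted p = 0.181, 0.116 and 0.129 without osteoblast replicates 1, 2 and 3 and 0.0507 and 0.0970 without chondrocyte replicates 2 and 3. That of Copb1 was lost without osteoblast replicate 1, 2 or 3 (0.159, 0.116 and 0.0741) and chondrocyte replicate 3 (0.0737). Copg1 passed as higher without chondrocyte replicate 2 (0.0319).

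On the values as deposited, the spread between libraries was not the same in the groups. The coefficient of variation over the 38 genes had a median of 5.52% in osteoblasts and 10.9% in chondrocytes. Osteoblast replicate 2 was the highest osteoblast library for 32 of 38 genes. Chondrocyte replicate 1 was the lowest of its group for 26 genes and chondrocyte replicate 3 the highest for 24. These ranks depend on scaling and were counted as deposited only. Median of ratios scaling divides chondrocyte replicates 1, 2 and 3 by 0.8958, 0.7711 and 0.9186, which raises replicate 2 the most. The highest coefficient of variation was 32.8%, for Spcs3 in chondrocytes.

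Ratios between paralogs within a library do not depend on scaling and were compared for 9 pairs. Groups did not overlap for 5 of them, each at p = 0.1 in an exact two-sided permutation test, the smallest that 3 against 3 allows, and adjusted to 0.18 over the 9 pairs. No pair could therefore pass the threshold. Ratios of other gene pairs were not computed, so the 5 of 9 are not shown to be particular to paralogs. Among single tested genes, 60.4% were higher and 15.3% lower without overlap as deposited. Sec11c was 0.343, 0.351 and 0.376 of Sec11a in osteoblasts, against 0.205, 0.160 and 0.186 in chondrocytes. All osteoblast ratios were higher, and Sec11c made up 26.3% ± 0.934 of the catalytic pair in osteoblasts and 15.5% ± 1.63 in chondrocytes (SD, n = 3 each).

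Sec61a2 was 0.0557, 0.0557 and 0.0536 of Sec61a1 in osteoblasts, against 0.117, 0.0982 and 0.0892 in chondrocytes, so that the minor alpha subunit was the smaller share in osteoblasts, 5.21% ± 0.109 against 9.20% ± 1.16 (SD, n = 3 each). The difference in log2 ratio was -0.87 ± 0.12 (SE). Sec24a was 0.389, 0.432 and 0.477 of Sec24b in osteoblasts, against 0.622, 0.689 and 0.649 in chondrocytes, a difference of -0.60 ± 0.10 in log2 ratio. Of the summed Sec24 level, Sec24d gave 64.1% ± 1.55 in osteoblasts and 59.0% ± 3.01 in chondrocytes, and Sec24a 4.81% ± 0.159 and 9.13% ± 0.327 (SD, n = 3 each). Sec24d was thus the main Sec24 transcript in both cell types.

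Sec23a was 2.41, 2.74 and 2.66 times Sec23b in osteoblasts, against 2.77, 4.31 and 3.06 times in chondrocytes. The groups nearly touched, the difference in log2 ratio was -0.35 ± 0.20 (SE), and it was -0.17 without chondrocyte replicate 2. Kdelr3 was 0.782, 0.790 and 0.817 of Kdelr2 in osteoblasts, against 0.876, 0.914 and 1.00 in chondrocytes (-0.22 ± 0.06 in log2 ratio). The ratios of Sar1b to Sar1a, Sec24d to Sec24c, Kdelr2 to Kdelr1 and Kdelr3 to Kdelr1 overlapped between the groups, with exact permutation p from 0.2 to 1.0.

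**Figure D4:**
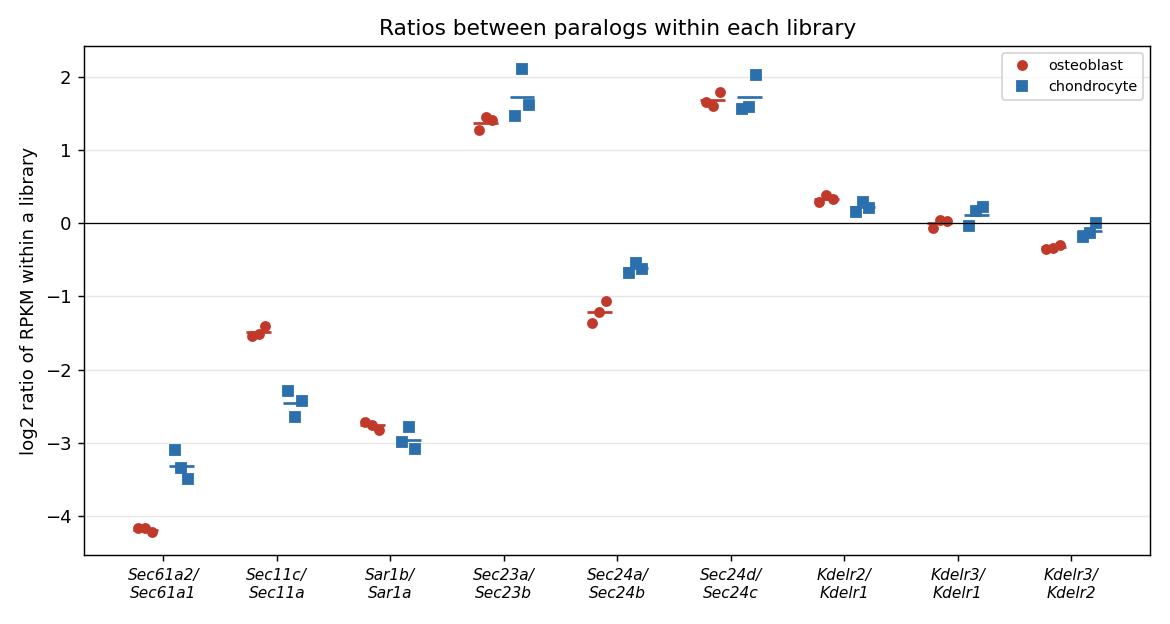
Log2 ratio of RPKM of 9 paralog pairs within each library, with osteoblast libraries (circles) left of chondrocyte libraries (squares) and a line at each mean. Sec61a2/Sec61a1, Sec11c/Sec11a and Sec24a/Sec24b stand clearly apart, with differences of -0.87, 0.97 and -0.60, while Sec24d/Sec24c overlaps.

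The share of each step in the summed level of the route is also free of scaling. The translocon took 32.8, 33.6 and 33.4% in osteoblasts, against 29.3, 32.4 and 29.7% in chondrocytes. Cargo receptors took 21.3, 20.3 and 20.2% in osteoblasts, against 22.8, 23.9 and 23.0% in chondrocytes. Both shares were apart between the groups, as were those of retrieval (21.2% ± 0.218 and 20.2% ± 0.299) and of the signal peptidase (6.02% ± 0.0420 and 6.25% ± 0.0422; SD, n = 3 each). The share of the COPII coat overlapped, at 19.0% ± 0.234 and 19.8% ± 1.99. Set against the summed level of 12 fibrillar and associated collagens, the route amounted to 6.75, 6.71 and 6.75% in osteoblasts, against 2.94, 2.83 and 3.67% in chondrocytes. That is 2.14 times as much in osteoblasts, where Col1a1 (19060 to 20960 RPKM) led the collagens, as in chondrocytes, where Col2a1 (26730 to 48030 RPKM) did. The collagen sum itself was lower in osteoblasts, with a mean of 35730 RPKM against 58050 RPKM in chondrocytes. The median tested gene was 0.43 higher in osteoblasts on the log2 scale as deposited. Other genes were not set against the collagens, so the 2.14 is not shown to be particular to the route. These shares and ratios were added after the data were seen, 7 were computed, and the exact permutation p was 0.1 for the 5 that were apart (adjusted 0.14), the smallest it can be. Other gene sets were not compared in this way, so the 5 of 7 are not shown to be particular to the route.

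Of the 7 genes listed with several RefSeq transcripts, 5 had 10 transcripts with a share of 5 to 95% of their gene. Sec23b showed the widest shift: its transcript NM_001252544 held 51.7, 50.6 and 63.6% of the gene in osteoblasts, against 38.2, 41.8 and 39.6% in chondrocytes. The groups did not overlap (exact permutation p = 0.1, the smallest possible, adjusted 0.25 over 10 transcripts). Ssr4 and Lman1 shifted by 3.46 and 6.69 percentage points between their 2 listed transcripts (exact permutation p = 0.1 and 0.3). The sources used here do not give how reads were divided between transcripts.

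The rest of the route was listed as 77 further genes, of which 73 were tested. As deposited 40 (54.8%, all tested genes 55.5%) were called higher in osteoblasts and 6 (8.22%, all tested genes 13.5%) lower (limma), with a median log2 difference of 0.37 (all tested genes 0.43). By the second scaling 14 (19.2%, all tested genes 33.6%) were called higher and 23 (31.5%, all tested genes 28.3%) lower, with a median of -0.02 (0.06). In each of the roles that follow, the share called higher by median of ratios was below that of all tested genes. The number lower as deposited was 2 without osteoblast replicate 3, 5 without chondrocyte replicate 2 and 3 without any other library. Oligosaccharyltransferase subunits, which add sugar chains beside the translocon, were called higher in 7 of 10 cases (70%, all tested genes 55.5%) and lower in 0 (13.5%) as deposited. By median of ratios they were called higher in 3 (30%, all tested genes 33.6%) and lower in 2 (20%, all tested genes 28.3%). They were led by Tusc3, an accessory oxidoreductase, with 45.1, 45.5 and 40.7 RPKM in osteoblasts, against 12.7, 12.1 and 16.7 RPKM in chondrocytes. These groups were far apart (log2 difference 1.60 ± 0.13 SE; limma, adjusted p = 5.15e-05, and 1.18 by median of ratios, adjusted p = 0.000108). Magt1, its paralog, gave 0.88 and 0.49, and Rpn1 0.89 and 0.45, all 4 called. The catalytic subunits Stt3a and Stt3b were not called as deposited (-0.07 and -0.04) and fell by 0.51 and 0.48 by median of ratios (limma, adjusted p = 0.0262 and 0.00149). The call of Stt3a was lost without osteoblast replicate 1, 2 or 3 (limma, adjusted p = 0.0996, 0.0638 and 0.0777). That of Rpn1 by median of ratios held only without chondrocyte replicate 2, with adjusted p of 0.0711 to 0.141 in the other fits.

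Of 17 tethers and SNAREs 7 (41.2%, all tested genes 55.5%) were called higher and 2 (11.8%, all tested genes 13.5%) lower as deposited. By median of ratios 3 (17.6%, all tested genes 33.6%) were called higher and 6 (35.3%, all tested genes 28.3%) lower. Rab1b, a GTPase that recruits tethers, had 63.0, 59.5 and 53.4 RPKM in osteoblasts, against 23.5, 22.8 and 26.9 RPKM in chondrocytes. All osteoblast libraries were higher, at 1.23 as deposited and 0.80 by median of ratios (limma, adjusted p = 7.23e-05 and 0.0003). Ykt6 and Stx18, both SNAREs, gave 0.84 and 0.74, whereas the SNAREs Sec22b and Stx5a gave -0.47 and -0.26 as deposited (limma, adjusted p = 0.00514 and 0.0457) and -0.90 and -0.70 by median of ratios. As deposited, the call of Stx5a was lost whichever library was left out (limma, adjusted p = 0.0645 to 0.180).

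COPI and Arf genes were called higher in 7 of 14 cases (50%, all tested genes 55.5%) and lower in 1 (7.14%, all tested genes 13.5%) as deposited. By median of ratios they were called higher in 3 (21.4%, all tested genes 33.6%) and lower in 6 (42.9%, all tested genes 28.3%). Arf3, Arf1 and Arf5, small GTPases of which Arf1 recruits COPI, gave 1.43, 0.87 and 0.83, and Copg2, the paralog of Copg1, gave -0.25 (limma, adjusted p = 0.0408), a call that held only in the fit lacking chondrocyte replicate 2 (adjusted p = 0.0829 to 0.135 in the others). Of 12 COPII regulators 7 (58.3%, all tested genes 55.5%) were called higher and 2 (16.7%, all tested genes 13.5%) lower as deposited. By median of ratios 2 (16.7%, all tested genes 33.6%) were called higher and 5 (41.7%, all tested genes 28.3%) lower. Sec16b, the short paralog of Sec16a, had 12.4, 13.8 and 13.6 RPKM in osteoblasts, against 22.9, 35.4 and 21.9 RPKM in chondrocytes, so that both Sec16 genes were lower in osteoblasts under both scalings (Sec16b -0.93 as deposited; limma, adjusted p = 0.00276). Trappc3, a tether subunit, and Preb, the exchange factor that loads Sar1, gave 0.78 and 0.69, and Sec23ip gave -0.24 (adjusted p = 0.0385). Its call, too, held only in the fit lacking chondrocyte replicate 2 (limma, adjusted p = 0.0674 to 0.129 in the others).

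Of 10 targeting factors 4 (40%, all tested genes 55.5%) were called higher and 1 (10%, all tested genes 13.5%) lower as deposited. By median of ratios 0 (all tested genes 33.6%) were called higher and 4 (40%, all tested genes 28.3%) lower. Srp19, a signal recognition particle protein, and Srprb, a subunit of its receptor, gave 0.62 and 0.58, and Tram2, a translocon partner known for type I collagen synthesis, gave -0.62 (limma, adjusted p = 0.0164). Tram2 had 10.1, 10.7 and 8.17 RPKM in osteoblasts, against 13.4, 20.1 and 13.2 RPKM in chondrocytes. No library of 1 group reached the other, and the call was lost without osteoblast replicate 3 (limma, adjusted p = 0.0653). Of 10 other p24 and lectin receptors 8 (80%, all tested genes 55.5%) were called higher and 0 (13.5%) lower as deposited, led by Ergic2, Tmed5 and Lman2 at 0.90, 0.84 and 0.77. By median of ratios 3 (30%, all tested genes 33.6%) were called higher and 0 (28.3%) lower.

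**Figure D5:**
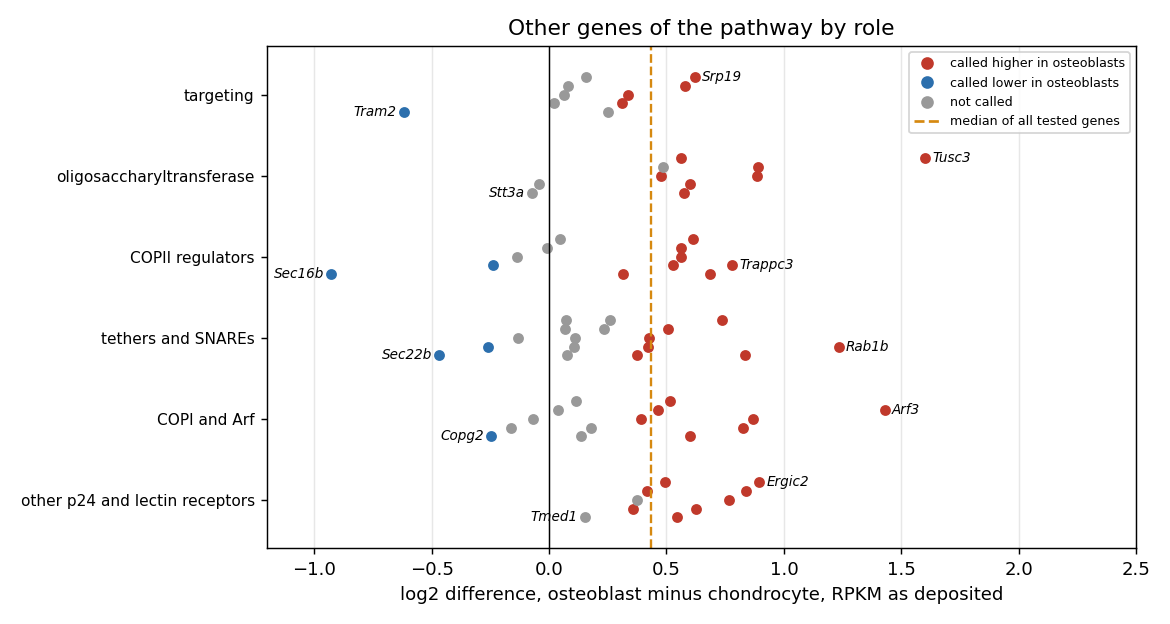
Log2 difference, osteoblast minus chondrocyte, as deposited, of the 73 further genes of the route by role, coloured by call, with the lowest and highest of each role named. The dashed line is the median of all tested genes, 0.43. Tusc3 (1.60), Arf3 (1.43) and Rab1b (1.23) lie farthest to the right and Sec16b (-0.93) farthest to the left.

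A pair of regulators known from skeletal cells were called in opposite directions. Creb3l1 (OASIS) and Creb3l2 (BBF2H7) are membrane-bound transcription factors released from the ER, known in mice for type I collagen in osteoblasts and for Sec23a in chondrocytes. Creb3l1 had 118, 126 and 135 RPKM in osteoblasts, against 17.98, 13.6 and 45.6 RPKM in chondrocytes, with replicate 3 the highest chondrocyte library. The log2 difference was 2.44 ± 0.39 (SE; limma, adjusted p = 0.00114) as deposited and 2.00 (adjusted p = 0.00320) by median of ratios. Creb3l2 had 18.1, 16.8 and 16.2 RPKM in osteoblasts, against 76.1, 68.6 and 63.0 RPKM in chondrocytes, with -1.96 ± 0.11 (SE; limma, adjusted p = 7.99e-06) and -2.39 (adjusted p = 1.1e-05). Xbp1, the factor of the unfolded protein response that binds the UPRE, had 58.5, 62.9 and 56.8 RPKM in osteoblasts, against 57.2, 47.2 and 68.9 RPKM in chondrocytes. Its groups overlapped and it was not called as deposited (0.06; limma, adjusted p = 0.753), and it stood at -0.38 (adjusted p = 0.0167) by median of ratios, a call lost without osteoblast replicate 1 or 3 (0.0747 and 0.0605). Of 7 listed regulators 6 were tested. As deposited 4 (66.7%, all tested genes 55.5%) were called higher and 1 (16.7%, 13.5%) lower. By median of ratios these were 3 (50%, 33.6%) and 2 (33.3%, 28.3%). Atf6 gave 0.79 and 0.41 (limma, adjusted p = 0.000401 and 0.00337) and Ern1 0.82 and 0.47 (0.00679 and 0.0357). The second call of Ern1 was lost without osteoblast replicate 1, 2 or 3 or chondrocyte replicate 1 (0.0633 to 0.118).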

How the data were processed

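The authors deposited RPKM per RefSeq transcript for 6 mouse libraries. Per the submitters' processing notes, TopHat2 2.0.8 and build mm9 were used; the counting program and any use of strand are not given in the sources used here. For each symbol the RPKM of its transcripts were added, and genes that reached 1 RPKM in 3 or more libraries were tested with limma 3.58.1 (R 4.3.3) on log2(RPKM + 1), pseudocount 1, two-sided, with variance trend and robust moderation, and Benjamini-Hochberg adjustment over all 11218 tested genes. Log2 differences on this scale understate the change of low genes. Ratios within a library were compared by exact permutation tests (SciPy 1.17.1). Read depth was estimated from the steps of low RPKM and GENCODE M21 lengths: 63.4 to 64.6% of the values lay within 0.05 of a whole read, short of nearly all, so no count test was run. The estimate covers counting error only.

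The genes and lists were chosen with earlier results of these data known. All 39 genes could be named; of the further genes, up to 3 called per role with the largest difference, and those called against the majority where 5 or fewer; of regulators and chaperones, those of highest level. The catalytic Stt3 subunits, Atf6 and Ern1 were named after their values were seen. The promoter sequences, motifs and step shares were added after the data were seen. Fits were tested on simulated data. Alternatives were other pseudocounts, filters, scalings and moderation, library weights, a replicate block, 1 transcript per gene and each library left out.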

Additional observations from a re-analysis of the deposited data

How the results depend on the processing

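Scaling decided more than any other choice. As deposited, 6224 of 11218 tested genes were called higher and 1512 lower. By median of ratios 3765 of the 11218 were called higher and 3178 lower. With a common sum without the 50 most abundant genes these numbers were 3904 and 3009. Among genes of mean RPKM of at least 5, only 6911 were tested, of which 4092 were called higher and 885 lower. Those lower counts thus go with a smaller number of tested genes. With a library left out, which also left fewer genes tested, 4573 to 6313 were called higher and 1003 to 1635 lower as deposited. Genes of the route called higher numbered 4 by median of ratios, 5 with the common sum without the 50 genes and 15 with a plain common sum, and those lower 9, 8 and 4. With a library left out, 17 to 24 were higher and 2 lower as deposited, and 2 to 12 higher and 6 to 13 lower by median of ratios. Of the further genes 14 were higher under both the first and the second scaling, 23 and 23 lower, 10 lower with a common sum, and 2 to 5 lower with a library left out.

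By median of ratios the sign turned for Sec63 (-0.27), Ssr4 (-0.38), Spcs1 (-0.31), Sec11a (-0.26), Sar1a (-0.27), Sar1b (-0.074), Sec23a (-0.10), Sec24d (-0.0025), Tmed2 (-0.28), Tmed9 (-0.18), Tmed10 (-0.053), Copa (-0.24) and Copb1 (-0.35). With the common sum without the 50 genes it turned for Sec63 (-0.24), Ssr4 (-0.35), Spcs1 (-0.28), Sec11a (-0.23), Sar1a (-0.24), Sar1b (-0.045), Sec23a (-0.071), Tmed2 (-0.25), Tmed9 (-0.15), Tmed10 (-0.023), Copa (-0.21) and Copb1 (-0.32). With a plain common sum it turned for Ssr4 (-0.0998), Spcs1 (-0.029), Tmed2 (-0.00065) and Copb1 (-0.073), and with 1 transcript per gene for Ssr4 (-0.017). The cause was not tested. With a library left out, values ran from -0.11 to 0.0030 for Sec61a2, -0.047 to 0.22 for Ssr4, -0.090 to 0.069 for Sec24b, -0.13 to 0.11 for the log2 ratio of Sec24d to Sec24c, -2.47 to 2.33 percentage points for Sec23b transcript NM_001252545 and -0.298 to 0.134 (the last without chondrocyte replicate 2) for the difference in the ratio to chaperones, which was -0.139 with all libraries.

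The labels do not say whether replicate numbers pair the libraries. Deviations of same-numbered libraries from their group means correlated at 0.0791, 0.00964 and -0.155, and those of other pairs at -0.15 to 0.126. With only 3 libraries behind each mean, these values cannot settle whether the numbers mark a pairing. With the replicate block 22 genes of the route were called higher and 2 lower, 4 and 7 by median of ratios, and 3 further genes lower. Library weights gave 31 higher and 2 lower. Pseudocounts, filters and moderation without trend left the numbers of the route called at 23 and 2.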

Other observations

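ER chaperones, which fold the chains that the translocon admits, were listed as 12 genes, all tested. As deposited 10 (83.3%, all tested genes 55.5%) were called higher in osteoblasts and 0 lower (limma), with a median log2 difference of 0.79 (all tested genes 0.43). By median of ratios 5 (41.7%, all tested genes 33.6%) were called higher and 0 lower (0.35, all tested genes 0.06). Calr, calreticulin, averaged 307 ± 36.0 RPKM in osteoblasts and 213 ± 58.7 RPKM in chondrocytes, and Pdia3, a disulfide isomerase, 210 ± 22.2 and 150 ± 24.8 RPKM (SD, n = 3 each). Calr was called as deposited (0.56; limma, adjusted p = 0.0431) although its groups overlapped, and the call held only without chondrocyte replicate 3 (adjusted p = 0.0584 to 0.138 in the other fits). Pdia3 was called at 0.49 (limma, adjusted p = 0.0217) as deposited, with groups that did not overlap, and lost the call without osteoblast replicate 1 or 2 or chondrocyte replicate 1 (0.0756, 0.0875 and 0.0658). Neither Calr nor Pdia3 was called by median of ratios (0.11 and 0.04; limma, adjusted p = 0.565 and 0.785). Hspa5 (BiP), the most abundant member with Calr, had 256, 272 and 232 RPKM in osteoblasts, against 280, 175 and 334 RPKM in chondrocytes. Its groups overlapped and it was not called under either scaling (-0.01 as deposited and -0.45 by median of ratios; limma, adjusted p = 0.984 and 0.0625). Without chondrocyte replicate 2 it was called lower by median of ratios (-0.66; limma, adjusted p = 0.00168). The summed level of the translocon and transport genes over that of the chaperones was 1.68, 1.68 and 1.90 in osteoblasts, against 1.67, 2.44 and 1.58 in chondrocytes. These ratios overlapped (exact permutation p = 1.0).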
